A study of Mus musculus with 2 samples.

Results

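The cytosolic ribosomal proteins are the protein subunits of the ribosomes that translate nuclear-encoded messenger RNA. Probe sets were taken when the platform annotation gave them a single gene symbol and that symbol was Rplp0 to Rplp2, Rpsa, or Rpl or Rps with a number and at most 1 letter. The rule found 99 of the 45037 probe sets, for 45 of 18193 genes, 21 of the small subunit and 24 of the large subunit. Rps4l fits the naming pattern but is classed by RefSeq as a transcribed pseudogene and was left out, with an intensity of 656 in the mutant and 686 in wild type. The annotation names 73 such symbols in all, and the other 28 appear only on probe sets that also list another gene, mostly pseudogenes, and were not used. RNA came from rib chondrocytes, the cells of costal cartilage, of mice at 5 days of age, released with collagenase and hybridised to an Affymetrix Mouse Genome 430 2 array. The V156D mutant carried a knock-in that changes matrilin-1, a cartilage matrix protein encoded by Matn1, and was set against the wild type without that change. Each genotype was 1 array. Per the series' design text, cells of 5 littermates were pooled before extraction, so no spread between animals was measured and no test is possible. Strain, sex, zygosity and the number of animals per pool for each genotype were not given in the sources used here.

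In a ribosome the small subunit holds the messenger RNA and reads its codons, and the large subunit joins the amino acids and passes the growing chain out through a tunnel. Ribosomal proteins are made in matched amounts, and their messenger RNAs in mammals typically begin with a cytosine followed by an unbroken run of pyrimidines, the TOP element (terminal oligopyrimidine), through which the kinase mTORC1 and the RNA-binding protein LARP1 control their translation. An array measures the amount of such a messenger RNA and not its translation. In mice, mutation of Rpl38 alters the patterning of vertebrae and ribs, and in humans mutations of several ribosomal protein genes cause Diamond-Blackfan anaemia, in which skeletal defects can occur.

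The TOP element was visible at the annotated starts of some members. RefSeq (GRCm38.p6) start windows of 300 bases, 250 before and 50 from the start onward, were found for 40 of the 45 genes. A C at the annotated start followed by at least 4 bases that were each C or T was present in 8 of the 48 member windows (16.7%), against 823 of 32851 windows of all genes (2.51%). The letters CCGGAAG, the core bound by ETS factors, were found on either strand in 20 of the 48 member windows (41.7%), against 2910 of all windows (8.86%). Annotated starts can lie some bases off the true one, so a window without a match shows only that these letters are not there. The 8 windows with the pyrimidine start are printed together with those of Rpl27, Rpl37 and Rps9, on which results below turn. Each runs from 40 bases before the start to 20 bases from it onward. Capitals mark the pyrimidine run from the start and any CCGGAAG or its reverse complement.
Rps6 (chr4:86857348-86857407, minus strand): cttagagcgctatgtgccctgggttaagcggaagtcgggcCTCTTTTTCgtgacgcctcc
Rps10 (chr17:27635225-27635284, minus strand): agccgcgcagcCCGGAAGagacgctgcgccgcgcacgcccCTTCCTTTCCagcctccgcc
Rps18 (chr17:33955646-33955705, minus strand): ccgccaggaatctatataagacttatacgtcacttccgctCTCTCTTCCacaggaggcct
Rps27 (chr3:90213629-90213688, minus strand): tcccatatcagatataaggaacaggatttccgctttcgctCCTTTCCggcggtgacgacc
Rpl14 (chr9:120571477-120571536, plus strand): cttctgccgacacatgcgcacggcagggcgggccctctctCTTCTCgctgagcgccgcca
Rpl35 (chr2:39005112-39005171, minus strand): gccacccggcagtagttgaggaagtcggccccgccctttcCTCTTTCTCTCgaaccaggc
Rpl38 (chr11:114668540-114668599, plus strand): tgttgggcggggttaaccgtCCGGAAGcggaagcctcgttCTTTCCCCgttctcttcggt
Rplp2 (chr7:141447611-141447670, plus strand): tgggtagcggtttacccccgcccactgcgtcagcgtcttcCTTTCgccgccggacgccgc
Rpl27 (chr11:101442205-101442264, plus strand): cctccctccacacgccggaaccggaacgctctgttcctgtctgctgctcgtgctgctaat
Rpl37 (chr15:5116573-5116632, plus strand): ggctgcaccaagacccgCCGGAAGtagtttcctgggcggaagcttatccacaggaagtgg
Rps9 (chr7:3704001-3704060, plus strand): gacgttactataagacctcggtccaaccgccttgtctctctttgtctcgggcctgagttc
The pyrimidine run was longest in Rpl35, at 11 bases, and shortest in Rplp2, at 5.

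Ribosomal protein genes had nearly the same signal in the mutant as in the wild-type array. Each gene was represented by its brightest probe set, and 42 of the 45 lay at or above the signal floor, an intensity of 54.6 (the median of all probe sets). Among these 42 the log2 ratio of mutant over wild type had a median of 0.01, against -0.02 over the 11329 genes at or above the floor. Of the 42, 23 (54.8%) had a ratio above 0, against 44.8% of all genes. The count was 16 with each array centred on its median, against 4594 of the 11329 genes. After a loess correction for signal it was 29, against 5777 of the 11329, so all genes moved with the scaling too. The sign of the group's median was therefore not settled, and that median stayed between -0.02 and 0.05 under the 3 scalings tried. It lay 0.02 to 0.05 above the median of all genes over 6 settings of scaling, offset and gene summary. With another gene summary, the median over all probe sets of a gene, the margin nearly vanished (-0.011, against -0.012 for all genes). With probe sets ending in _s_at, _x_at or _a_at dropped, the group's median was 0.04 over 20 genes, against -0.02 for all genes. These margins were all smaller than the median SD between probe sets of a member gene, 0.07. No member gene differed 1.5-fold, against 3.72% of all genes, and none 2-fold, against 0.909%, though 42 genes would hold few at those shares. At a lower threshold, a log2 ratio of 0.32 either way, 1 member passed, against 14.8% of all genes. This was Rpl37, lower in the mutant, a direction in which 9.25% of all genes passed, while 5.57% passed as higher. With 1 array a genotype, these counts describe the arrays and carry no error between samples.

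**Figure D1:**
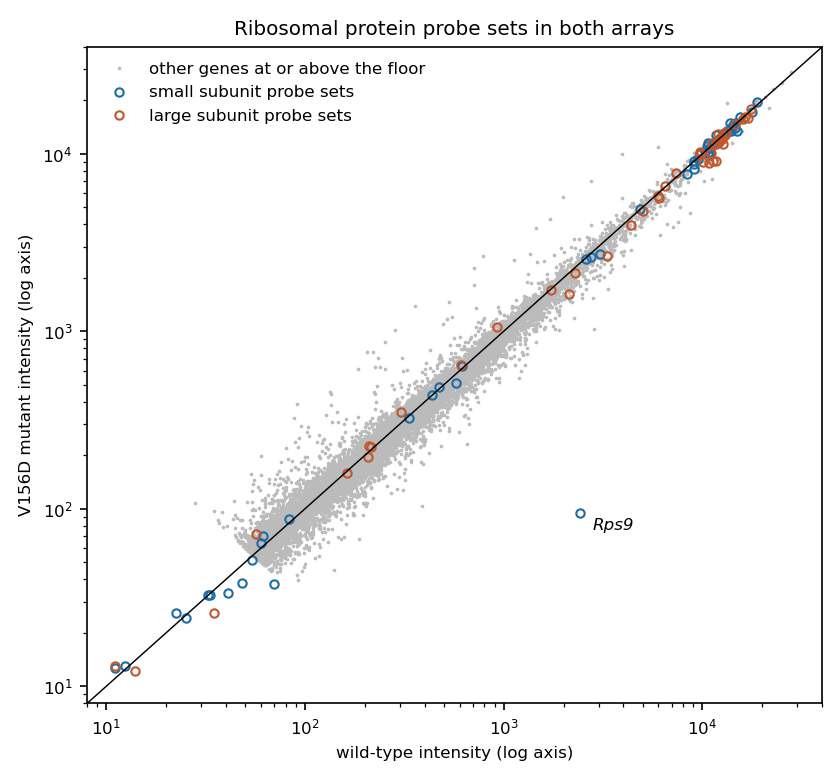
Intensity of each ribosomal protein probe set in the V156D mutant array (vertical, log axis) against the wild-type array (horizontal, log axis), 55 of the small subunit and 44 of the large subunit, with the brightest probe set of other genes in grey and the line of equal signal in black. Nearly all lie on the line, and the labelled Rps9 probe set lies far below it, at 94.1 in the mutant and 2424 in wild type.

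Member ratios were also close to one another. They ranged from -0.40 to 0.20 with an SD of 0.10 over the 42 genes, against 0.27 over all genes at or above the floor. Of the 42, 32 (76.2%) lay within 0.1 of 0, against 40.3% of all genes. Bright genes scattered less in general, so a second background was chosen after the values were seen, all genes with a mean log2 signal of at least 13 (an intensity of 8192). It held 101 genes, and 31 of them were ribosomal protein genes. Of those 31, 19 had a ratio above 0, against 50.5% of the 101. None of the 31 passed a log2 ratio of 0.32, against 3.96%, a share that would give few among them. They had an SD of 0.07 and 25 (80.6%) lay within 0.1 of 0, whereas the other 70 had an SD of 0.16 and 46 (65.7%) lay within 0.1. As 69 of the 99 member probe sets (69.7%) carry a suffix for probes that may match several transcripts, against 22.8% of all probe sets with 1 symbol, signals of related genes and pseudogenes cannot be told apart there.

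Small subunit genes were centred near 0. Their median log2 ratio was 0.02 over 20 genes, with 13 above 0, and it was -0.01 after centring on the array medians. The proteins listed for the messenger RNA channel and the decoding side had close to equal signals. Rps2, which lines the entry channel, had 13128 in the mutant and 12835 in wild type. Rps3, its neighbour in that channel, had 9352 in the mutant and 9457 in wild type with its brightest probe set, and 641 in the mutant and 618 in wild type with the next. Rps15, which reaches towards the decoding site, had 11005 in the mutant and 10558 in wild type, and Rps26, at the exit side of the channel, had 13239 in the mutant and 13283 in wild type. The 4 ratios lay between -0.02 and 0.06, so none of the 4 stood apart.

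The small subunit genes with the highest ratios were Rps9, Rps14, Rpsa, Rps28 and Rps29. Rpsa, which is also known as a laminin receptor, had 11437 in the mutant and 10690 in wild type, a log2 ratio of 0.10. Rps14, a gene of the small subunit platform, had 14837 in the mutant and 13744 in wild type with its brightest probe set, and 13441 in the mutant and 13301 in wild type with the other, so both were higher in the mutant by 0.11 and 0.02. All 3 Rps28 probe sets were above 0 (16231 in the mutant and 15401 in wild type for the brightest), with a mean of 0.04 ± 0.03 (SD between its 3 probe sets, which is no error between samples). Rps29 had 19565 in the mutant and 18740 in wild type with its brightest probe set, a ratio of 0.06, but its other 2 probe sets gave -0.04 and -0.06. Its mean of -0.01 ± 0.07 (SD over 3 probe sets) left its direction unsettled.

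The lowest small subunit ratios were those of Rps6, Rps27l and Rps20. Rps6, the protein phosphorylated by S6 kinases downstream of mTORC1, had 509 in the mutant and 574 in wild type, a log2 ratio of -0.17. That ratio rests on 1 probe set, as the other lay below the floor, with 24.2 in the mutant and 25.1 in wild type. Rps27l, a paralog of Rps27 that p53 induces in human cells, was lower with all 3 probe sets. They read 2726, 2613 and 2558 in the mutant and 3045, 2743 and 2581 in wild type, a mean ratio of -0.08 ± 0.07 (SD over probe sets). Rps27 itself, named after its value was seen, had 324 in the mutant and 333 in wild type, a ratio of -0.04. Rps20, a protein of the small subunit head, gave -0.14 with its brightest probe set (13512 in the mutant and 14938 in wild type) and 0.01 with the next (13343 in the mutant and 13285 in wild type), so the probe sets did not settle its direction.

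Large subunit genes had a median log2 ratio of -0.02 over 22 genes, with 10 above 0, and 0.02 after the loess correction. The P stalk, which recruits the elongation factors to the ribosome, was represented by 3 genes. Rplp0, its base, had 13201 in the mutant and 13101 in wild type. Rplp2, an acidic stalk protein, had 15773 in the mutant and 15972 in wild type. Rpl12, which sits at the stalk base, had the highest ratio of the 42 genes, 0.20, from 1056 in the mutant and 921 in wild type, and between 0.18 and 0.26 under the other settings. It has 1 probe set.

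The 3 measured members near the tunnel exit, where the new chain leaves, had ratios slightly below 0. Rpl19 had 11601 in the mutant and 12130 in wild type, a log2 ratio of -0.06, and Rpl39, one of the smallest ribosomal proteins, had 159 in the mutant and 162 in wild type, a ratio of -0.03. Rpl35, which forms part of the docking site for nascent-chain factors, gave a difference that 5 probe sets repeated. Its 5 probe sets of high signal read 11407, 9073, 9148, 8886 and 8943 in the mutant, against 12679, 11642, 11330, 10765 and 10130 in wild type. All 5 were lower in the mutant, by log2 ratios of -0.36 to -0.15 with a mean of -0.26 ± 0.09 (SD over probe sets), short of 1.5-fold. A sixth probe set, near the floor, gave the opposite sign, with 72.5 in the mutant and 56.4 in wild type. These probe sets target 1 gene in the same RNA pools and are not independent replicates, and all 5 carry a suffix for probes that may match several transcripts.

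Rpl37, Rpl11, Rpl27 and Rpl41 were the other large subunit members among the 8 lowest. Rpl37, a small zinc-binding protein, had 1613 in the mutant and 2126 in wild type, a log2 ratio of -0.40 that was -0.32 after quantile normalization. It was the lowest ratio of the 42 genes and rested on 1 probe set. Rpl27 was lower with all 3 probe sets, at 5647, 3983 and 2667 in the mutant and 6049, 4362 and 3302 in wild type, a mean of -0.18 ± 0.11 (SD over probe sets). Rpl11, which with Rpl5 and a small ribosomal RNA can bind the p53 inhibitor MDM2, had 10142 in the mutant and 11051 in wild type, a ratio of -0.12 from 1 probe set. Rpl41, a very short peptide of the ribosome, had 16007 in the mutant and 17010 in wild type with its brightest probe set, a ratio of -0.09, but the other 3 gave -0.02, 0.10 and 0.21.

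Rpl7a and Rpl8 were also among the 8 highest members. Rpl7a had 12974 in the mutant and 12000 in wild type, a log2 ratio of 0.11, and Rpl8, near the peptidyl transferase centre, had 7807 in the mutant and 7392 in wild type, a ratio of 0.08. Rpl37a had 17867 in the mutant and 17507 in wild type, a ratio of 0.03. The large subunit genes not named singly elsewhere had ratios between -0.08 (Rpl14) and 0.06 (Rpl27a), the ends named after their values were seen. Rpl38, named after its value was seen because of its part in rib patterning, had 14748 in the mutant and 14625 in wild type, a ratio of 0.01. In the small subunit Rps19, the gene most often mutated in human Diamond-Blackfan anaemia and also named after its value was seen, had 10285 in the mutant and 10273 in wild type.

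**Figure D2:**
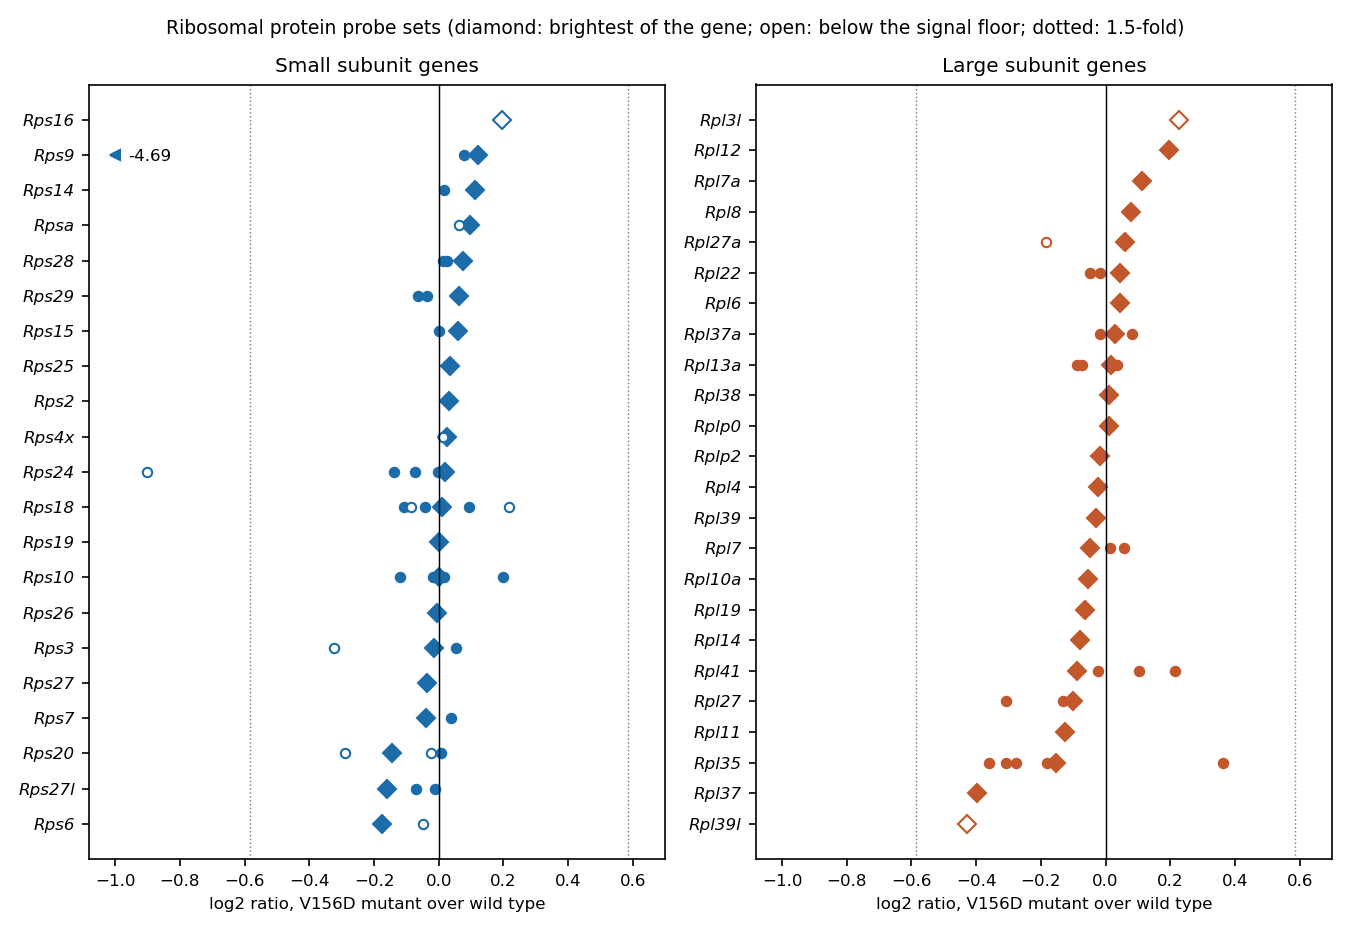
Log2 ratio of mutant over wild type for every probe set of the 45 genes, small subunit on the left and large subunit on the right. Diamonds mark the brightest probe set of a gene, open symbols lie below the signal floor, dotted lines mark 1.5-fold, and 1 Rps9 probe set at -4.69 is drawn at the edge. Diamonds at or above the floor lie between -0.40 and 0.20.

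One Rps9 probe set stood apart from everything else on the arrays. Rps9 is a small subunit protein that is known from yeast and bacteria to affect decoding accuracy. Its probe set 1434624_x_at had an intensity of 94.1 in the mutant and 2424 in wild type, 25.7-fold lower and a log2 ratio of -4.69. This was the lowest ratio of all 45037 probe sets, and the next lowest was -2.52. The other Rps9 probe sets gave the opposite sign. Probe set 1433689_s_at read 12760 in the mutant and 11723 in wild type, a ratio of 0.12, and 1426958_at read 87.8 in the mutant and 83.3 in wild type, a ratio of 0.08. Rps9 was therefore among the 8 highest members by its brightest probe set, 0.08 by the median over its probe sets, and -1.50 by their mean. The difference belonged to 1 of its 3 probe sets, and its cause was not tested. The gene values above do not use that probe set, since each gene is read from its brightest one.

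**Figure D3:**
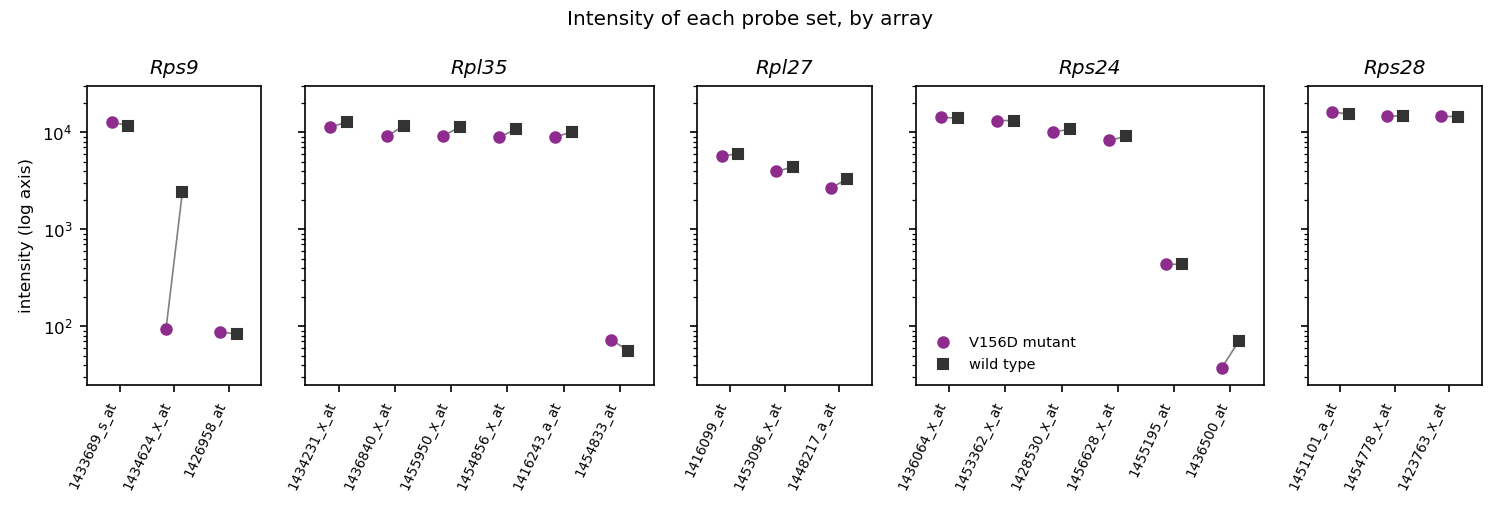
Intensity (log axis) of every probe set of Rps9, Rpl35, Rpl27, Rps24 and Rps28 in the V156D mutant array (circles) and the wild-type array (squares), joined by a line for each probe set. The pair of Rps9 probe set 1434624_x_at is far apart at 94.1 in the mutant and 2424 in wild type, the 5 upper Rpl35 pairs and the 3 Rpl27 pairs slope the same way, and the 3 Rps28 pairs are nearly level.

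Probe sets of 1 gene often differed in sign. Among 19 members whose signal reached the floor in several probe sets, 5 (26.3%) had ratios of 1 sign, against 52.5% of the 4878 such genes in all. The count was 8 (42.1%) after quantile normalization and after loess, against 51.4% of all such genes under either, and 6 without the Rps9 probe set. The 5 were Rpl27, Rps14, Rps15, Rps27l and Rps28. The 19 members had from 2 (Rps14) to 6 (Rpl35) probe sets each at or above the floor. The more probe sets a gene has, the less easily all share 1 sign. The shares were not matched for that number, so they do not show that members disagreed more than other genes. The SD between probe sets of a gene had a median of 0.07 over the 19 members, against 0.13 over all such genes. Over all probe sets of a gene, the ratios spanned 0.92 in Rps24, 0.72 in Rpl35 and 0.38 in Rps3. A ratio smaller than about this spread is not set apart from 0 by these probe sets. Rps24, which takes part in the processing of small subunit RNA, had 5 probe sets at or above the floor with a mean of -0.04 ± 0.07 (SD over probe sets). Its sixth, below the floor, read 37.5 in the mutant and 70.0 in wild type, a ratio of -0.90. The 6 Rps10 probe sets ranged from -0.12 to 0.20, and the 4 Rpl13a probe sets, both genes named after their values were seen, from -0.09 to 0.03.

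Counted by probe set, 86 of the 99 reached the floor. Of these, 42 had ratios above 0 and 44 below it, near the 45.3% above 0 among all probe sets with 1 symbol. The Rps9 probe set was the only 1 of these 86 that differed 1.5-fold (1.16%), against 3.59% of all probe sets with 1 symbol. Without it, they ran from -0.40 to 0.36. Of the 13 member probe sets below the floor, 3 were the sole probe set of their gene. Rpl3l, a paralog of Rpl3 expressed in striated muscle, had 12.9 in the mutant and 11.1 in wild type, and Rpl39l, a paralog best known from testis, had 26.0 in the mutant and 34.9 in wild type. Rps16, a core protein of the small subunit, had 12.6 in the mutant and 11.0 in wild type, and its sole probe set thus gives no usable level for it. Members with the pyrimidine start printed above had a median ratio of -0.03 (8 genes, -0.17 to 0.01), and those with a window but no such start 0.02 (29 genes, -0.40 to 0.20), ranges that overlap.

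Genes that build ribosomes, by contrast, mostly had lower signals in the mutant array. Of 90 ribosome biogenesis genes at or above the floor, 80 had log2 ratios below 0, against 55% of all genes, and the median was -0.19, between -0.22 and -0.16 under the scalings and probe set summaries tried. The count below 0 was 72 after quantile normalization, against 5483 of 11330 genes, and 72 after loess, against 5552 of 11329. Minus the median of all genes, the biogenesis median ran from -0.20 to -0.16 over these settings. At 1.5-fold, 3 were lower and none higher, against 2.02% and 1.7% of all genes. Riok2, a kinase of small subunit maturation, was lowest at -1.30 (127 in the mutant and 312 in wild type) and 2-fold lower, as were 0.256% of all genes, but its other 2 probe sets at or above the floor gave 0.07 and -0.21. Ddx21, a nucleolar RNA helicase, had 453 in the mutant and 706 in wild type, a ratio of -0.64, and -0.18 with its second probe set. Dimt1, which methylates small subunit RNA and is named because it was the remaining gene past 1.5-fold, had 247 in the mutant and 381 in wild type, a ratio of -0.62, and -0.25 with its second probe set. The highest were Tsr3, also an enzyme that modifies small subunit RNA, at 0.11 and the acetyltransferase gene Nat10 at 0.08. The biogenesis ratios are differences between 2 arrays and were not tested against those of the ribosomal proteins.

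Other parts of the translation machinery lay closer to the median of all genes, -0.02. Their counts below 0 depended on the scaling, as did that of all genes. Of 74 mitochondrial ribosomal protein genes, 57 were below 0, against 55% of all genes. The count was 46 after quantile normalization and after loess. Of all genes, 5483 of 11330 were below 0 after quantile normalization and 5552 of 11329 after loess. The median of the mitochondrial genes was -0.09 (-0.11 to -0.04 over the settings), and none passed 1.5-fold, against 3.72% of all genes. Minus the median of all genes, it ran from -0.07 to -0.04 over the settings. The lowest were Mrps25 at -0.42 and Mrps6 at -0.33, and the highest Mrps24 at 0.27 and Mrpl34 at 0.26. Of 31 initiation factor genes 25 were below 0, with a median of -0.06. After quantile normalization and after loess only 15 were below 0 and 16 above, with medians of 0.01 and 0.00, so their direction was not settled. Eif2a, a factor that can deliver initiator tRNA, was lowest at -0.45, yet -0.02 with its second probe set, and Eif2s3x, a subunit of eIF2, had -0.27. Eif4b, a cofactor of the initiation helicase, and Eif2b4, of the exchange factor for eIF2, were highest at 0.12 each. Of 12 elongation and termination genes 8 were below 0, with a median of -0.05, and 7 after quantile normalization and after loess. Abce1, which splits ribosomes for reuse, had -0.28 and the release factor gene Gspt1 -0.23, and Eef1a2 and Eef2, elongation factors, had 0.14 and 0.08. No initiation, elongation or termination gene differed 1.5-fold, against 3.72% of all genes, and lists of this size would hold few at that share.

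Other genes whose messenger RNAs carry a TOP element had a median log2 ratio of -0.00. The elongation list also holds Eef1a1, Eef1b2, Eef1d and Eef2 of these genes, and the initiation list Eif3e, Eif3f, Eif3h and Eif4b. Of 19 measured, 9 were above 0 and 10 below, against 44.8% of all genes above 0. The counts were 14 above and 4 below after quantile normalization, 15 and 4 after loess, and 7 and 12 with the mean over probe sets. Over all genes, 5831 were above and 5483 below after quantile normalization, and 5777 and 5552 after loess. With the mean over probe sets, 5148 of all genes were above and 6163 below. None passed 1.5-fold, against 3.72% of all genes. Vim, the intermediate filament vimentin, was highest at 0.19 and Eif4b next at 0.12. Eef1b2, an elongation factor subunit, was lowest at -0.19, and Npm1, a nucleolar chaperone also on the biogenesis list, had -0.17. Fau, also on this list, whose product is cleaved into a ubiquitin-like protein and a small subunit protein, had 9380 in the mutant and 9100 in wild type, a ratio of 0.04. Among 19 regulators around mTORC1 and Myc, 8 were above 0 and 11 below, with a median of -0.05, and 10 and 9 after quantile normalization. Myc, a transcription factor that activates ribosome biogenesis genes, was lowest at -0.44, with 1795 in the mutant and 2429 in wild type, and Eif4ebp2, a translation repressor, had -0.30. Maf1, a repressor of RNA polymerase III, and Deptor, an mTOR inhibitor, were highest at 0.24 and 0.22.

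**Figure D4:**
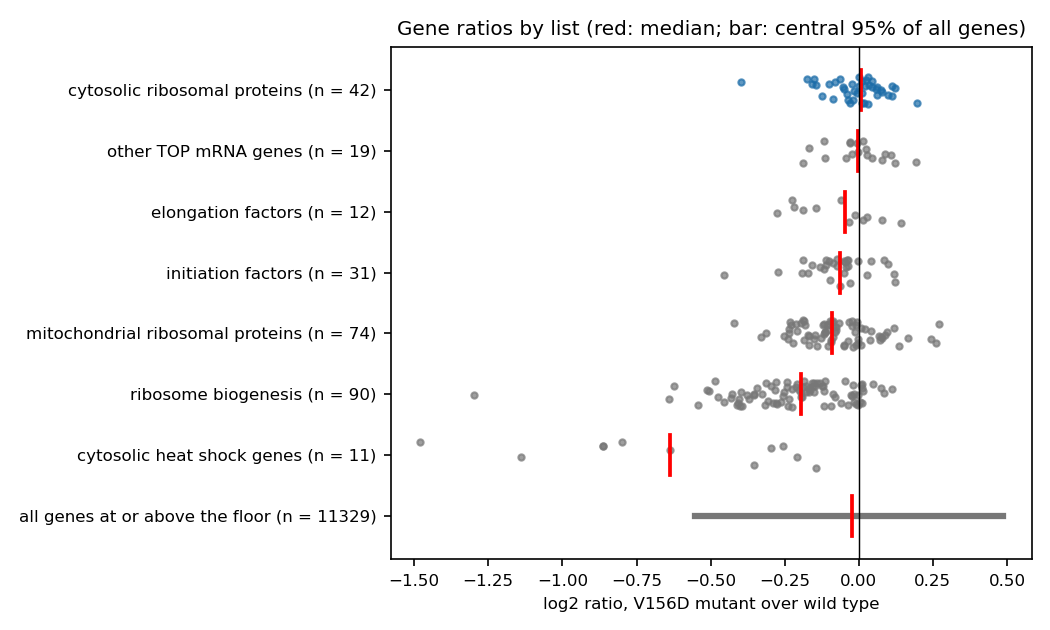
Log2 ratio of mutant over wild type for each gene at or above the floor, by list, with the median in red and the central 95% of all genes as a bar. Some genes are on more than 1 list. Cytosolic ribosomal proteins (42 genes, median 0.01) and other TOP genes (19, -0.00) are centred near 0, ribosome biogenesis genes (90, -0.19) lie mostly below it, and heat shock genes (11, -0.64) lie farther below.

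Matn1, the targeted gene, had an intensity of 4340 in the mutant and 4373 in wild type, which does not check the labels, since the knock-in changes 1 amino acid. The median intensity was 55.1 in the mutant and 54.3 in wild type. All 15 chondrocyte markers were above the floor, from 2555 to 29057 in the mutant and from 3134 to 27997 in wild type, with a median ratio of 0.02 and ends of -0.38 for Ucma and 0.15 for Col11a2. Of 12 fibroblast and perichondrial markers 11 were above 0, against 44.8% of all genes, with a summed intensity of 80262 in the mutant and 51680 in wild type. Their log2 ratios were 1.69 for Col14a1 and 1.54 for Tnmd at one end and 0.09 for Lum and -0.10 for Pdgfra at the other. Of these markers 5 were 2-fold higher, against 0.653% of all genes. Of 10 endothelial markers 6 were at or above the floor and 5 of these above 0, against 44.8% of all genes. The 10 summed to 1081 in the mutant and 677 in wild type. Blood cell markers (8 measured) summed to 505 in the mutant and 475 in wild type, and skeletal muscle markers (8 measured) to 1799 in the mutant and 2424 in wild type. Tnnt3 alone gave 1388 of the muscle sum in the mutant and 1930 in wild type, and 5 of the 8 muscle markers lay below the floor. All 11 cytosolic heat shock genes were below 0, against 55% of all genes, with a median of -0.64. They summed to 80148 in the mutant and 106209 in wild type, and 6 were 1.5-fold lower, against 2.02% of all genes. No marker was at 0 in either array. Their part in the ribosomal and biogenesis values was not tested, and in pooled cells fewer cells of a type and less RNA per cell cannot be told apart.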

How the data were processed

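RNA of 1 V156D mutant pool and 1 wild-type pool of rib chondrocytes was measured on 1 array each. The authors deposited 1 linear intensity per probe set and array. MAS5 is named per the submitters' processing notes, but the log2 values end within 5 decimals, as a log-scale summary would, so the method, the scaling between arrays and detection calls are not settled. No further normalization was applied before log2.

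Gene symbols came from GEO's platform table for the array and were updated by Entrez identifier from a RefSeq table of GRCm38.p6. Of 45037 probe sets, 34945 had 1 symbol. The 932 with several and the 9160 with none entered no gene value. Each gene was read from its brightest probe set (by mean log2 signal), and the floor was the 50th percentile of that mean over all probe sets, 5.77. With no replicates there is no p-value, fold thresholds only count genes, and the number of arrays limits the precision.

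The members and gene lists were chosen with earlier results of these data known. Named members were the 8 highest and 8 lowest ratios, the 5 brightest, those whose probe sets spanned over 0.5, and members of the role lists. In other lists the rule was the 2 highest and 2 lowest. The text names these for the translation and fibroblast lists and gives the other marker lists and the heat shock genes by counts and sums, with Ucma, Col11a2 and Tnnt3 as single examples. The alternatives changed the scaling (array medians, quantiles, loess with a span of 0.3), the offset (32), the floor (40th or 60th percentile, or absent), the gene summary (mean or median over probe sets) or the probe sets kept (none with a suffix for several transcripts). Scripts were tested on simulated data. Python 3.11.15, numpy 2.4.6, pandas 2.3.3, statsmodels 0.14.6 and matplotlib 3.10.9 were used.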

Additional observations from a re-analysis of the deposited data

How the results depend on the processing

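No paired analysis was possible because each genotype has 1 array. Over 11 alternatives the median ratio ran from -0.02 to 0.05 for all ribosomal protein genes, from -0.01 to 0.06 for the small subunit and from -0.04 to 0.02 for the large. Each stayed within 0.07 of its reported value, the median SD between probe sets of a gene, though all 3 medians took both signs. The count past 1.5-fold was 1 (Rps9) with the mean over probe sets, and 0 with that mean once the Rps9 probe set that stood apart was left out, an alternative chosen after seeing the data. It was 1 (Rpl37) at the threshold of 0.32 in log2. The count above 0 was 12 of 20 when probe sets with a suffix for several transcripts were dropped, since fewer genes were left. Genes with probe sets of 1 sign numbered 8 of 19 after quantile normalization, 8 of 19 after loess and 8 of 23 with no floor. This count could not be made without the suffixed probe sets, as no member kept a second one at or above the floor. Of 247 recomputed values of named members 15 moved by more than 0.07, among them Rpl35 (0.36 from its weakest probe set, the only 1 without a suffix), Rpl41 (0.05 as the mean) and Rps9 (-1.50 as the mean), and the cause was not tested.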

Other observations

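Probe sets that list a cytosolic ribosomal protein gene together with another gene belong to no gene comparison and name no single gene. There were 110 of them, 102 at or above the floor, with a median log2 ratio of -0.02. Of the 102, 37 were above 0, against 45.3% of probe sets with 1 symbol. They ranged from -0.69 to 0.27 and 1 differed 1.5-fold, against 3.59% of probe sets with 1 symbol. Related genes outside the naming rule were also measured. Rpl22l1, a paralog of Rpl22, had 8083 in the mutant and 8674 in wild type, a ratio of -0.10. Rpl7l1, a paralog of Rpl7, had 763 in the mutant and 920 in wild type, a ratio of -0.27, and Rsl24d1, a large subunit assembly factor related to Rpl24, had 559 in the mutant and 600 in wild type, a ratio of -0.10.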
